A study of Mus musculus with 24 samples.

Results

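The genes described here make or move chromosomes in dividing cells. They comprise 20 genes of mitosis, 16 genes of DNA replication and 2 transcription factor genes, Foxm1 and E2f1. The 38 genes were chosen from a list of symbols, and all 38 were found once each among the 78298 gene IDs of the count table.

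Liver RNA was sequenced from 24 mice, 1 library per mouse. The 6 control mice are described only as normal controls and the 18 model mice only as a steatohepatitis model, a fatty liver with inflammation. The strain, sex, age, diet or agent, and the duration of the model are not given in the labels, and no genetic change is named for either group. All 18 model mice carry the same label. In whole liver, a higher level of a gene in more cells and in the same number of cells cannot be told apart.

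In a cell that prepares to divide, the MCM2-7 helicase is loaded onto replication origins by Cdc6 and Cdt1 and later joins Cdc45 and the GINS complex to unwind DNA. E2F1 and its relatives switch on many of these genes at the entry into S phase. FOXM1 and the MuvB complex drive the mitotic genes later, through promoter letters known as the CHR. A further set of promoter letters, the CCAAT box, was also searched for below. Few cells of the adult liver divide, and its hepatocytes are often polyploid.

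The promoter letters of both classes are shown first, because the results below are ordered by these classes. RefSeq windows (GRCm38.p6) from 250 bases before to 50 bases after the annotated start were found for 30 of the 38 genes, in 32 windows. Each window was searched on both strands for the CHR letters TTTGAA, for CCAAT, and for the E2F letters TTNNCGC with C or G at each N. An E2F match can overlap CCAAT, since GCGCCAA followed by T holds both. The 3 mitosis promoters below belong to genes described in full, and 190 bases before the start are shown 5′ to 3′ on the gene's strand, with matches to any of the motifs in capitals. Mki67 lies at chr7:135716380-135716569 (minus strand), Top2a at chr11:99024190-99024379 (minus strand) and Bub1 at chr2:127831860-127832049 (minus strand).
Mki67: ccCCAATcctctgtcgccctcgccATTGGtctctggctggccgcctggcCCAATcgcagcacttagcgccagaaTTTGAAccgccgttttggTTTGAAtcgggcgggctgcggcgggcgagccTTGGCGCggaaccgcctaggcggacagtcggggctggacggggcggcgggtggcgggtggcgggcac
Top2a: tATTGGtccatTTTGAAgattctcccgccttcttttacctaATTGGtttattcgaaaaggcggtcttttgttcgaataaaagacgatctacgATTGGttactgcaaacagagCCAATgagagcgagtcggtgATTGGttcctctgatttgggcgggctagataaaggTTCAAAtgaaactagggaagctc
Bub1: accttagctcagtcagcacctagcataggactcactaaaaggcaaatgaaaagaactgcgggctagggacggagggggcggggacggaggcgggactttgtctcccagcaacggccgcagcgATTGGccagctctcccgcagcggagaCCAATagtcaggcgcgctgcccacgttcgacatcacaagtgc
Mki67 held 2 CHR matches, at 116 and 98 bases before the start, 3 CCAAT matches and an E2F match at 67 bases before it. Top2a held 2 CHR matches, of which the nearer began 23 bases before the start, and 6 CCAAT matches in its window, of which 5 are in the letters shown. Bub1 held 2 CCAAT matches, at 68 and 42 bases before the start, and no CHR or E2F match.

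The replication promoters below belong to 3 of the genes described in full, with E2F matches in a pair of them and a CHR match in the other, again in capitals. Mcm5 lies at chr8:75109319-75109508 (plus strand), Cdc6 at chr11:98907961-98908150 (plus strand) and Mcm2 at chr6:88898781-88898970 (minus strand).
Mcm5: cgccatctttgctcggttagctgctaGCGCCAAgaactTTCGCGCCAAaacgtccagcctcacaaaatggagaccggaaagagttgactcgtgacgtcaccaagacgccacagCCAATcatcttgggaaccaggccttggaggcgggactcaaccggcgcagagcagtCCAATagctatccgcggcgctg
Cdc6: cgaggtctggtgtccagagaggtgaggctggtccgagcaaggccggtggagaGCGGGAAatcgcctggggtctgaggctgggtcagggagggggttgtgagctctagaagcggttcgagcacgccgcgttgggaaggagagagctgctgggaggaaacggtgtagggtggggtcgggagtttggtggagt
Mcm2: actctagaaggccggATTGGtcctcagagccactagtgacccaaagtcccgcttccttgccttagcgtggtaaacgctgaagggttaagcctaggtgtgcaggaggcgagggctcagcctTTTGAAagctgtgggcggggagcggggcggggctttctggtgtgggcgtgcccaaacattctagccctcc
Mcm5 held 3 E2F matches, at 164, 152 and 149 bases before the start, of which the last pair overlap each other. Cdc6 held 1 E2F match, at 138 bases before the start, and neither of the other motifs. Mcm2 was unlike the first pair: it held a CHR match at 70 bases before the start and no E2F match.

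The CHR letters were present in 12 of 17 mitosis windows (70.6%), in 2 of 14 replication windows (14.3%), in 17.9% of all 32851 windows and in 12.7% of the 14464 windows of genes tested. The E2F letters went the other way, with 3 of 17 mitosis windows (17.6%), 9 of 14 replication windows (64.3%), 9.57% of all windows and 15.3% of windows of genes tested, so the mitosis share lay near that of the genes tested. In 1 of the 3 mitosis windows, that of Ccnb1, the E2F letters occurred only where they overlapped CCAAT. This was so in 0 replication windows, though a window of Mcm7 held E2F matches both with and without such an overlap. CCAAT was frequent in both classes, at 88.2% and 78.6%, against 37.4% of all windows and 37.1% of those of genes tested. Windows of genes that rose in the model and of those that did not held CHR letters in 10 of 21 (47.6%) and 4 of 11 (36.4%) cases, and E2F letters in 7 of 21 (33.3%) and 5 of 11 (45.5%). A match is a description of the letters and not a measured binding site.

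Library totals ranged from 31.6 M to 58.4 M counts (38.7 ± 6.02 M in controls, 40.8 ± 7.17 M in model mice, SD). Levels are given as CPM, the counts of a gene scaled to a common library size with TMM factors. For 17 of the 38 genes the lowest library held fewer than 10 counts of the gene. Of the marker lists checked, all 8 hepatocyte markers were detected in every library, and 7 of 8 were lower in the model. Genes were called at a Benjamini-Hochberg adjusted p below 0.05 in the quasi-likelihood test of edgeR. Of 17456 genes tested, 31.2% were called higher in the model and 28.8% lower, and the median log2 change over all of them was 0.01. Without TMM factors, from library totals alone, 9406 genes were higher and 1562 lower, and with upper-quartile factors 6289 and 3733, in place of 5445 and 5035. Every model mouse lay above every control in 9.67% of genes and below every control in 6.02%.

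Most of the 38 genes rose in the model livers. All 38 passed the expression filter, 28 were called higher, 24 of them by at least 2-fold, 3 were called lower and 7 did not pass. Their median log2 change was 1.40. The share called higher was 73.7%, beside the 31.2% of all genes tested, and the share called lower was 7.89%, beside 28.8%. For 15 genes every model mouse lay above every control, 39.5% beside 9.67%, and for 0 genes every model mouse lay below every control.

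The classes differed in how widely the rise was shared. Of the 20 mitosis genes, 17 rose, Aurka fell, and Cdk1 and Kif11 did not pass. Their median log2 change was 1.74. Of the 16 replication genes, 9 rose, Mcm7 and Rrm2 fell and 5 did not pass (Mcm10, Cdc45, Cdt1, Pcna and Tyms), with a median of 0.41. Both transcription factor genes rose. This difference between the classes was not tested, since the genes were listed with results of these data known.

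**Figure D1:**
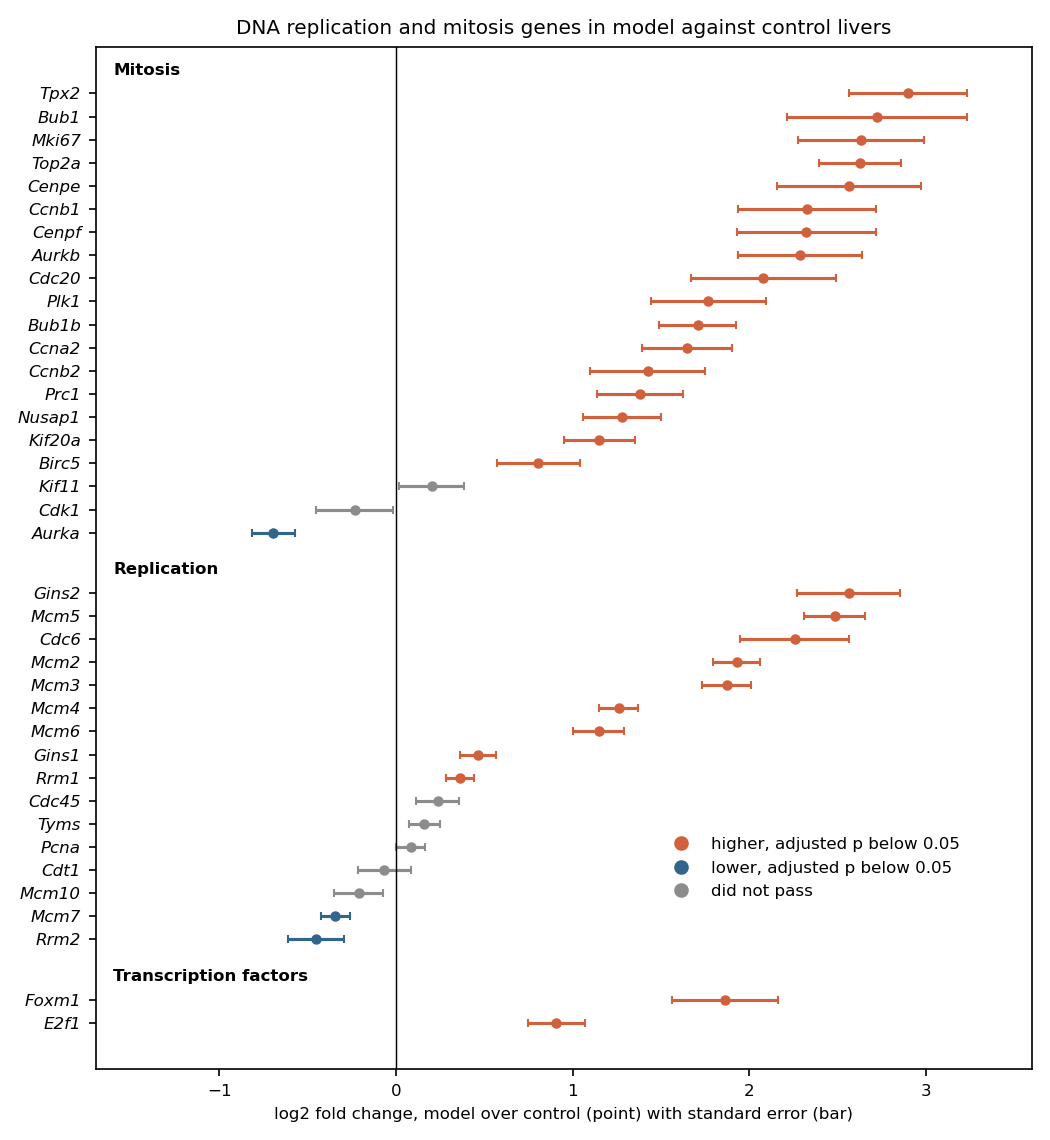
Log2 fold change of each of the 38 genes, model over control livers, on the horizontal axis (point) with its standard error (bar), by class and sorted by size. Orange genes passed as higher, blue as lower, grey did not pass. The mitosis genes run from Tpx2 (2.90) to Aurka (-0.69) and the replication genes from Gins2 (2.56) to Rrm2 (-0.45).

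Mki67, the gene of the proliferation marker Ki-67 that coats mitotic chromosomes (chr7:135291513-135318090 in GRCm39, minus strand), was read at 0.235, 1.17, 0.354, 0.675, 0.0629 and 0.473 CPM in controls 1 to 6. In the 18 model mice it ranged from 1.49 (model mouse 14) through a median of 3.32 to 4.89 CPM (model mouse 5). Every model mouse was above every control, though control 2, the highest control, came near the lowest model mouse. This gave a log2 fold change of 2.63 (SE 0.36, edgeR adjusted p = 6e-07). Single libraries held between 2 and 263 counts of it.

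Top2a encodes the topoisomerase that untangles sister chromatids (chr11:98883769-98915015, minus strand). Control values were 0.264, 0.646, 0.386, 0.568, 0.535 and 0.338 CPM, and model values ran from 1.33 through a median of 2.98 to 4.01 CPM. The groups did not overlap. Its log2 fold change was 2.62 (SE 0.23, edgeR adjusted p = 7.6e-10).

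Tpx2, a spindle assembly factor and the activator of Aurora kinase A (chr2:152689884-152737241, plus strand), had the highest fold change of the 38 genes. It stood at 0.147, 0.397, 0.129, 0.178, 0.189 and 0.101 CPM in controls 1 to 6 and at 0.682 to 2.98 CPM in model mice, with a median of 1.42. Control 2 was well above the other controls, and every model mouse was above it. Model over control, this was a log2 fold change of 2.90 (SE 0.33, edgeR adjusted p = 4.6e-08).

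Bub1, a kinase of the spindle checkpoint (chr2:127643036-127673785, minus strand), was the scarcest of the mitosis genes described in full, with 0 to 21 counts per library. Controls read 0, 0.0993, 0, 0.071, 0.0629 and 0.0338 CPM, and the model median was 0.328 CPM, with a highest value of 0.585. Model mouse 14 had no count, and the other 17 model mice were above every control. Fitted over all libraries, its log2 fold change was 2.72 (SE 0.51, edgeR adjusted p = 5e-05).

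Cenpe, the kinesin that tethers kinetochores to microtubules (chr3:134918298-134979372, plus strand), was likewise near the detection limit in controls, at 0.118, 0.149, 0, 0.142, 0.0944 and 0.0338 CPM. Model mice ran from 0.195 through a median of 0.536 to 0.98 CPM, with no overlap between groups. Cenpe had a log2 fold change of 2.56 (SE 0.41, edgeR adjusted p = 5.7e-06).

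Ccnb1, cyclin B1, is the partner of Cdk1 at the entry into mitosis (chr13:100915158-100923078, minus strand). Controls read 0.0588, 0.397, 0.129, 0.142, 0.189 and 0.0338 CPM. Model values ran from 0.361 through a median of 0.78 to 1.64 CPM, and 17 of 18 lay above every control. Control 2 was again the highest control and lay above the lowest model mouse. For Ccnb1 the log2 fold change was 2.33 (SE 0.39, edgeR adjusted p = 1.2e-05).

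The other mitosis genes that rose were the kinetochore gene Cenpf (2.32), Aurkb (2.29), the kinase of the chromosomal passenger complex, and Cdc20 (2.08), an activator of the anaphase-promoting complex. They continued with Plk1 (1.77), Bub1b (1.71), Ccna2 (1.65), Ccnb2 (1.42), the midzone bundler Prc1 (1.38), Nusap1 (1.28), the cytokinesis kinesin Kif20a (1.15) and Birc5 (0.81), which encodes survivin. Among these 11 genes, Bub1b, Prc1 and Kif20a showed no overlap between groups, and Birc5 overlapped most, with 9 of 18 model mice above every control. About 29.3% of the exon bases of Kif20a lie in an exon of Cdc23 on the opposite strand, 12.5% of those of Ccna2 in Exosc9 and 11.1% of those of Prc1 in Rccd1. The labels do not say whether counting used the strand, so reads of such neighbours cannot be told apart.

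Aurka, the Aurora kinase of spindle poles, was the 1 mitosis gene that fell (chr2:172198110-172212455, minus strand). It read 5.02, 4.79, 3.51, 3.73, 5.5 and 4.73 CPM in controls and ran from 2.04 through a median of 2.82 to 4.58 CPM in model mice. Of 18 model mice, 17 lay below every control, and model mouse 3 lay within the control range. Its log2 fold change was -0.69 (SE 0.12, edgeR adjusted p = 2.9e-05). Its activator Tpx2 thus moved in the opposite direction.

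Cdk1, the kinase that cyclins A2 and B activate, did not follow its cyclins. Controls read 1.82, 3.9, 2.8, 1.49, 2.8 and 3.38 CPM, and model mice ran from 1.28 through a median of 2.23 to 3.87 CPM, inside nearly the same range. Between groups, Cdk1 had a log2 fold change of -0.23 (SE 0.22, edgeR adjusted p = 0.36), and 0.12 with library totals alone. Per kilobase of exon, the level of Cdk1 was 0.846 ± 0.289 of the summed levels of Ccnb1, Ccnb2 and Ccna2 in controls and 0.249 ± 0.0682 in model mice (SD, n = 6 and 18). This ratio was chosen after its values were seen, and it is given with no test. The spindle motor gene Kif11 had a log2 fold change of 0.20 (SE 0.18, edgeR adjusted p = 0.35), and 0.54 with library totals alone (edgeR adjusted p = 0.0257).

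**Figure D2:**
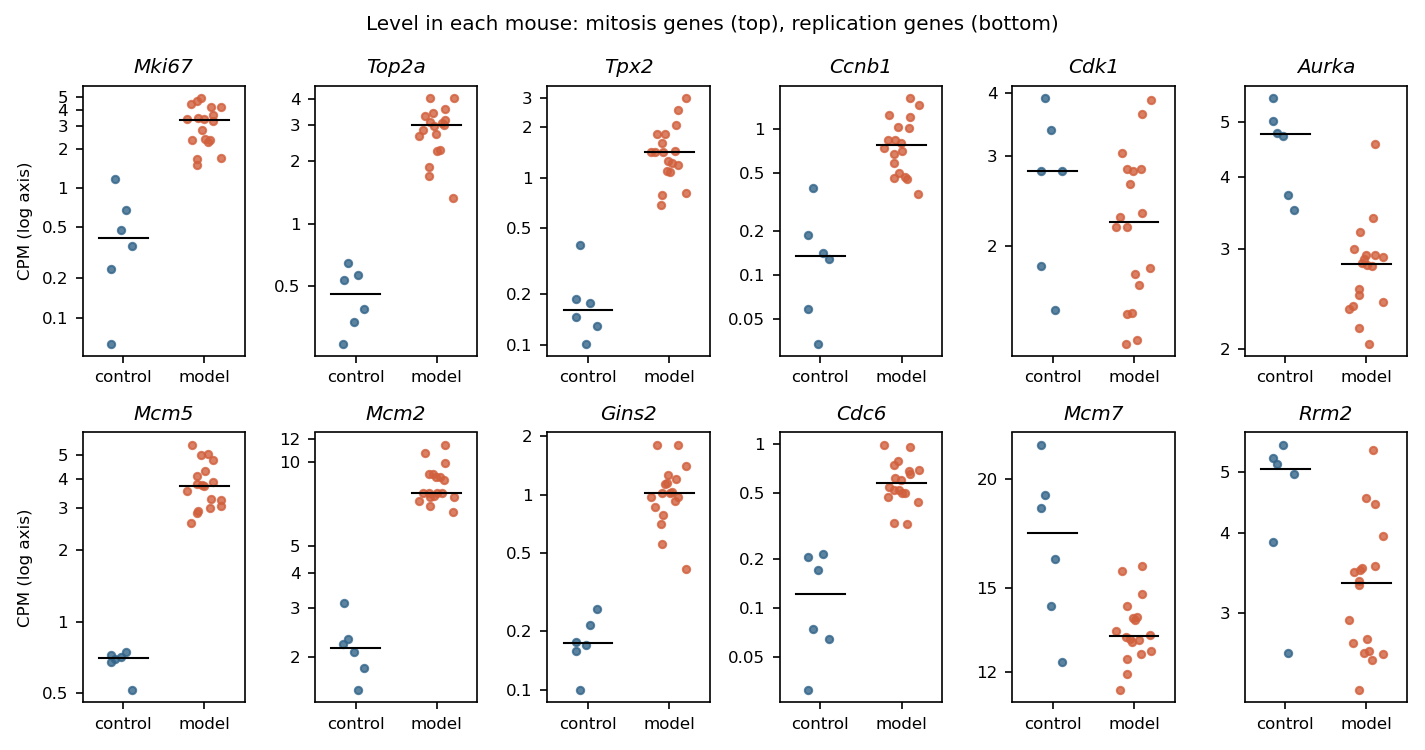
CPM of 12 genes in each mouse on a log axis that differs between panels, controls (6 points, blue) beside model mice (18 points, orange), with a line at each group's median. The upper row holds mitosis genes and the lower row replication genes. Mki67, Top2a, Tpx2, Mcm5, Mcm2, Gins2 and Cdc6 show separate groups, whereas Cdk1, Mcm7 and Rrm2 overlap.

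Of the origin licensing factors, Cdc6 rose and Cdt1 did not pass. Cdc6 loads the helicase (chr11:98798627-98814766, plus strand) and read 0.206, 0.0745, 0.0644, 0.213, 0.0315 and 0.169 CPM in controls. In model mice it ran from 0.323 through a median of 0.574 to 0.989 CPM, all above the controls, from 1 to 45 counts per library. Cdc6 thus had a log2 fold change of 2.26 (SE 0.31, edgeR adjusted p = 6.3e-07). For Cdt1, the second loading factor, the value was -0.06 (SE 0.15, edgeR adjusted p = 0.73).

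Among the subunits of the MCM2-7 helicase, Mcm5 had the highest fold change (chr8:75836197-75855067, plus strand). It read 0.676, 0.695, 0.515, 0.746, 0.724 and 0.71 CPM in controls, a narrow range, and from 2.6 through a median of 3.73 to 5.55 CPM in model mice. The groups did not overlap, and the lowest model mouse was far above the highest control. For Mcm5 the log2 fold change was 2.48 (SE 0.17, edgeR adjusted p = 1e-11).

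Mcm2 (chr6:88860456-88875762, minus strand) read 2.23, 2.33, 1.83, 1.53, 3.11 and 2.1 CPM in controls, and 6.59 to 11.5 CPM in model mice with a median of 7.74. The log2 fold change was 1.93 (SE 0.13, edgeR adjusted p = 8.7e-12), and every model mouse exceeded every control.

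Mcm3 (chr1:20873192-20890536, minus strand) read 1.76, 2.01, 1.61, 2.49, 2.67 and 1.96 CPM in controls, and 5.54 to 11.2 CPM in model mice with a median of 7.37. Again the groups were apart, with a log2 fold change of 1.87 (SE 0.14, edgeR adjusted p = 2.9e-11).

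Mcm4 (chr16:15441761-15455264, minus strand) read 3.35, 2.68, 2.51, 2.38, 3.3 and 2.37 CPM in controls, and 5.03 to 8.26 CPM in model mice with a median of 6.86. The groups were apart here too, and the log2 fold change was 1.26 (SE 0.11, edgeR adjusted p = 7.6e-10). For Mcm6, with no overlap between groups either, it was 1.15 (SE 0.15, edgeR adjusted p = 2e-07).

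Mcm7 was the exception in the helicase (chr5:138162845-138170684, minus strand). Controls read 18.5, 19.1, 12.3, 16.2, 21.9 and 14.3 CPM, and model mice 11.4 to 15.9 CPM with a median of 13.2. The groups overlapped, with 2 of 18 model mice below every control. Its log2 fold change was -0.34 (SE 0.08, edgeR adjusted p = 0.00088). It was -0.01 with library totals in place of TMM scaling (edgeR adjusted p = 0.897), which moved the median of all genes to 0.34, and -0.10 with the clock index described below as a covariate (edgeR adjusted p = 0.588). About 12.6% of its exon bases overlap other genes, among them Ap4m1 and Cops6 on the opposite strand.

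Per kilobase of exon, the 6 helicase subunits were far apart in control livers and close together in model livers. Mcm7 had the highest level in controls, 3.85 ± 0.785 CPM per kilobase (SD, n = 6), and Mcm5 the lowest, 0.17 ± 0.0208. In model mice these levels were 3.04 ± 0.263 and 0.953 ± 0.214 (SD, n = 18). The highest subunit stood at 22.7 ± 3.5 times the lowest in controls, from 18.2 to 27.3, and at 3.3 ± 0.549 times in model mice, from 2.35 to 4.15, so the groups did not overlap. Mcm7 stood at 7.14 ± 1.29 times the median of the other 5 subunits in controls and at 1.94 ± 0.305 times in model mice. The proteins form a ring with 1 copy of each. These ratios were chosen after the values were seen and carry no test.

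**Figure D3:**
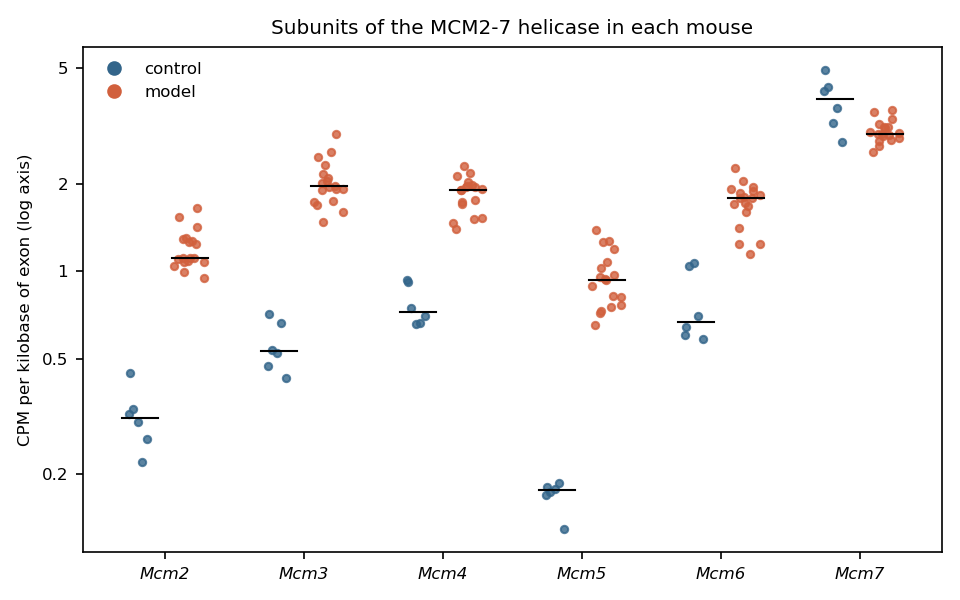
Level of the 6 genes of the MCM2-7 helicase in each mouse, in CPM per kilobase of exon on a log axis, controls (6 points, blue) beside model mice (18 points, orange), with a line at each group's median. In controls Mcm7 (mean 3.85) lies far above Mcm5 (mean 0.17). In model mice Mcm2 to Mcm6 have moved up towards Mcm7 (mean 3.04).

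Gins2, a subunit of the GINS complex (chr8:121305372-121316043, minus strand), had the highest fold change of the replication genes. It read 0.176, 0.0993, 0.257, 0.213, 0.157 and 0.169 CPM in controls and 0.417 to 1.8 CPM in model mice, with a median of 1.02 and no overlap. Gins2 had a log2 fold change of 2.56 (SE 0.29, edgeR adjusted p = 3.4e-08). However, 67.3% of its exon bases lie in exons of Gse1 on the opposite strand, and the share of Gse1 reads in these counts was not tested. Its partner subunit Gins1 rose less, by a log2 fold change of 0.46 (SE 0.10, edgeR adjusted p = 0.00034). Cdc45, the third component of the active helicase, had a value of 0.24 (SE 0.12, edgeR adjusted p = 0.097). It passed with upper-quartile scaling (0.33, edgeR adjusted p = 0.0245) and with library totals alone (0.57, edgeR adjusted p = 0.000572). About 12.7% of the exon bases of Cdc45 overlap other genes, among them Ufd1 on the opposite strand, which held many more counts. The share of Ufd1 reads in the counts of Cdc45 was not tested. Mcm10, which binds that helicase, had a value of -0.21 (SE 0.14, edgeR adjusted p = 0.19) and the highest level of the 38 genes in both groups, 11.8 ± 4.41 CPM per kilobase in controls and 10.2 ± 1.58 in model mice (SD, n = 6 and 18).

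Pcna, the sliding clamp of the replication fork (chr2:132091082-132095234, minus strand), had near equal values in both groups, although it is often read as a proliferation marker. Controls read 14.8, 15.7, 15.6, 12.3, 13.7 and 16.8 CPM, and model mice 12.9 to 19 CPM with a median of 15.7. The groups overlapped almost fully, and 5 of 18 model mice were above every control. The log2 fold change was 0.08 (SE 0.08, edgeR adjusted p = 0.4). The sign of this value turned with the clock covariate (-0.07), and with library totals alone it was 0.42 (edgeR adjusted p = 0.000495). About 20.8% of the exon bases of Pcna lie in AV099323 on the opposite strand, which held 115 counts in all libraries.

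The genes of nucleotide supply went both ways. Rrm2 encodes the small, cell cycle controlled subunit of ribonucleotide reductase (chr12:24758240-24764145, plus strand), and read 3.88, 5.14, 4.96, 2.59, 5.25 and 5.51 CPM in controls. Model mice ran from 2.27 through a median of 3.34 to 5.4 CPM, and 4 of 18 lay below every control. The log2 fold change was -0.45 (SE 0.16, edgeR adjusted p = 0.017). It did not pass with library totals alone (-0.11, edgeR adjusted p = 0.596) or with upper-quartile scaling (-0.35, edgeR adjusted p = 0.0653), and was -0.88 with the clock covariate (edgeR adjusted p = 0.0102). An unnamed gene on the opposite strand, which held 65 counts in all libraries, covers 35.8% of the exon bases of Rrm2. Rrm1, the large subunit, rose by 0.36 (SE 0.08, edgeR adjusted p = 0.0003), a call lost with the clock covariate (0.02, edgeR adjusted p = 0.902). Tyms, thymidylate synthase, had a value of 0.16 (SE 0.09, edgeR adjusted p = 0.12), and passed as higher with upper-quartile scaling (0.26, edgeR adjusted p = 0.0148) and with library totals alone (0.49, edgeR adjusted p = 5.46e-05).

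Foxm1, the transcription factor of mitotic genes (chr6:128339930-128353109, plus strand), read 0.235, 0.323, 0.161, 0.391, 0.252 and 0.237 CPM in controls and 0.293 to 1.53 CPM in model mice, with a median of 1.02. All but 1 model mouse, number 14, were above every control. The log2 fold change was 1.86 (SE 0.30, edgeR adjusted p = 7.1e-06).

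E2f1, the transcription factor of replication genes (chr2:154401327-154411812, minus strand), read 2.06, 3.2, 1.83, 1.53, 2.83 and 2.84 CPM in controls and 3.23 to 6.46 CPM in model mice, with a median of 4.34. Every model mouse was above every control, by little for the lowest. The log2 fold change was 0.91 (SE 0.16, edgeR adjusted p = 2.3e-05).

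The fold change went with how low a gene was in the control livers. All 16 genes below 0.5 CPM in controls rose (median log2 change 2.31), and they included Gins2, Cdc6 and Foxm1 beside 13 mitosis genes. Among all genes tested in that range, 56.7% rose, with a median of 0.89. Of the 15 genes at 2 CPM or more, 7 rose, 3 fell and 5 did not pass, with a median of 0.16. Among all genes in that range 20.4% rose, with a median of -0.13. The control level is part of the fold change and the filter keeps a low gene if it is high in 1 group, so these values are a description.

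Each mouse was then summarised by the mean log2 CPM of each class. For the mitosis genes controls ran from -1.50 to -0.54 and model mice from -0.48 to 0.90, so that the lowest model mice, 14 and 10, came close to control 2. For the replication genes controls ran from 1.54 to 1.83 and model mice from 2.25 to 2.82, with a wider gap. The mitosis mean minus the replication mean was -2.85 ± 0.393 in controls and -2.17 ± 0.34 in model mice (SD, n = 6 and 18), a difference that was not tested. Between 10 (model mouse 10) and 18 of the 20 mitosis genes, and between 8 and 12 of the 16 replication genes, lay above every control in a single model mouse.

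**Figure D4:**
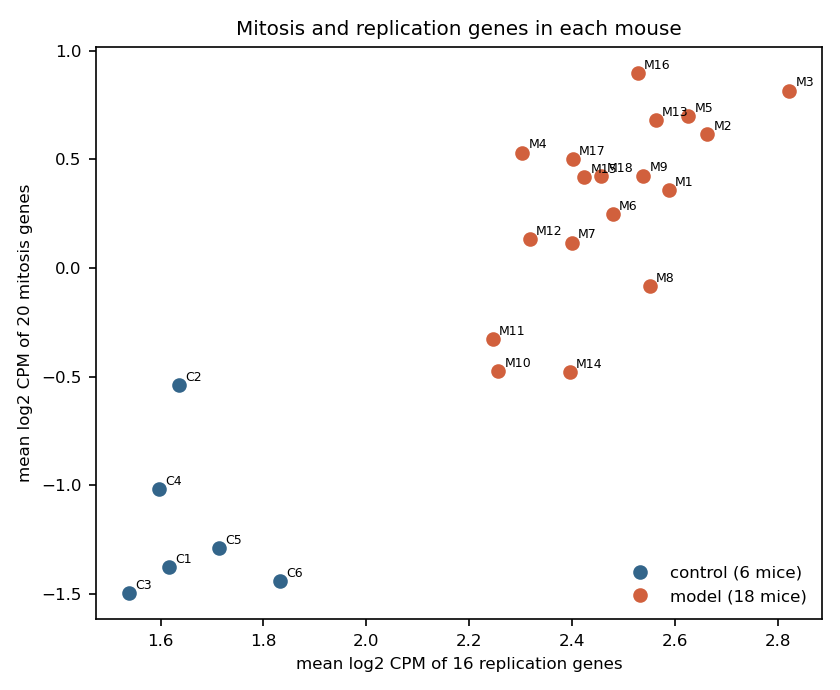
Mean log2 CPM of the 20 mitosis genes (vertical axis) against that of the 16 replication genes (horizontal axis), 1 point per mouse, 6 controls (C, blue) and 18 model mice (M, orange). Model mice lie above and to the right of all controls, and M10, M11 and M14 are lowest among them on the vertical axis.

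Within the model group, as within the controls, the mitosis genes were more variable than the replication genes. The median coefficient of variation over the 18 model mice was 33.8% for mitosis genes, 15.6% for replication genes and 18.4% for all genes tested. It ranged from 8.65% for Mcm7 to 54.3% for Cdc20 (0.6 to 4.28 CPM). In the 6 controls the medians were 42.3% for mitosis genes, 20.1% for replication genes and 19.8% for all genes tested. Mitosis genes also had lower counts, and the share of counting error in this spread was not tested. Model mouse 16 was among the highest 3 for 15 of 20 mitosis genes, model mouse 3 for 12 and model mouse 2 for 10. Model mice 14, 10 and 11 were among the lowest 3 for 16, 14 and 13 mitosis genes. Model mice 3 and 2 were also among the highest 3 for 11 and 9 of the 16 replication genes, whereas model mouse 16 was so for 2.

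Mitosis genes varied together across the model mice more than replication genes did. The median Spearman correlation over the 18 mice was 0.61 for the 190 pairs of mitosis genes, 0.29 for the 120 pairs of replication genes and 0.24 for the 320 mixed pairs. All values of a mouse come from 1 library and share its scaling. With Mki67 the highest correlations were those of Cenpe (0.89), Cenpf (0.86), Kif11 (0.82) and Pcna (0.80). Kif11 and Pcna thus varied with Mki67 among model mice although neither passed between groups. The lowest were those of Mcm7 (-0.53), Mcm10 (-0.39) and Mcm4 (-0.37), and Mcm2, Mcm3 and Mcm5 stood at -0.10, -0.04 and -0.01. Cdc45 stood at -0.17, and the other replication genes were positive, among them Cdc6 (0.66), Rrm2 (0.56) and the helicase subunit Mcm6 (0.51). Among the helicase subunits Mcm2 to Mcm6 the median over 10 pairs was 0.50, and over the 5 pairs of Mcm7 with them it was 0.51.

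Over the model mice, Mki67 was higher where hepatocyte markers were lower. Its log2 level had a Pearson correlation of -0.71 with the log2 summed CPM of 8 hepatocyte markers (n = 18, permutation p = 0.00081, adjusted 0.0103 over 18 relations) and a Spearman correlation of -0.73 (permutation p = 0.00118, adjusted 0.0212). Without the 2 mice farthest from the median of the markers, r was -0.65 (permutation p = 0.00667, adjusted 0.12), of a similar size but no longer past the threshold after adjustment. Without Alb, which makes up 78.8% of the sum, r was -0.56 (permutation p adjusted 0.0898). With 7 cholangiocyte markers r was 0.72 (permutation p = 0.00114, adjusted 0.0103) and rho 0.65 (permutation p = 0.00401, adjusted 0.0241), and r was 0.57 without the 2 farthest mice (permutation p = 0.0221, adjusted 0.132). Spp1 makes up 86.0% of that sum, and without it r was 0.57 (permutation p adjusted 0.0898).

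With 10 T and NK cell markers the correlation of Mki67 was 0.55 by Pearson (permutation p adjusted 0.0798) and 0.67 by Spearman (permutation p adjusted 0.0241). With 10 macrophage markers it was 0.53 (permutation p adjusted 0.084) and 0.54 (permutation p adjusted 0.0822). With 9 erythroid markers it was -0.56 (permutation p adjusted 0.0798) and -0.51 (permutation p adjusted 0.0897), and with 8 endothelial markers -0.48 (permutation p adjusted 0.133) and -0.40 (permutation p adjusted 0.251). Mcm2, tested against the same 9 marker lists, passed with none after adjustment. Its Pearson correlation with hepatocyte markers was -0.08 (permutation p adjusted 0.85). The Mki67 and Mcm2 relations were not tested against each other.

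**Figure D5:**
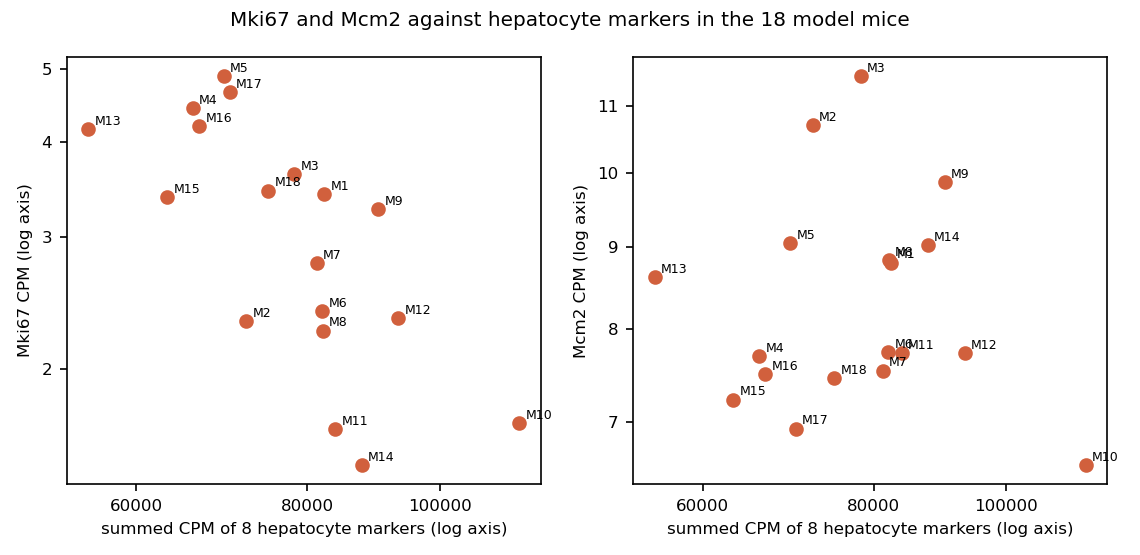
CPM of Mki67 (left) and Mcm2 (right) against the summed CPM of 8 hepatocyte markers in the 18 model mice (M), all axes logarithmic, 1 point per mouse. Mki67 falls from left to right (r = -0.71) and Mcm2 shows no such slope (r = -0.08).

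Markers of other cell types moved with the group as well. The summed hepatocyte markers were 117541 to 180485 CPM in controls and 55316 to 114295 CPM in model mice, below every control in 18 of 18. Macrophage markers rose for 9 of 10 genes, from a sum of 46.7 to 179 CPM in controls to 146 to 596 CPM in model mice. T and NK cell markers rose for 10 of 10 genes (sums of 2.99 to 5.12 and 3.36 to 15.4 CPM). B and plasma cell markers rose for 6 of the 7 tested, neutrophil markers for 5 of 7, stellate cell and fibroblast markers for 7 of 8, endothelial markers for 7 of 8 and cholangiocyte markers for 2 of 7. Of 6 erythroid markers tested, 3 fell and 0 rose (sums of 128 to 186 and 70.2 to 149 CPM). No marker was at 0 in all libraries. The part of these cell types in the higher replication and mitosis genes was not tested.

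Clock genes also moved with the group. A clock index was taken from genes of opposite daily phase (5 in phase with Bmal1, 9 with Dbp). It lay between -1.02 and 0.945 in controls 1 to 5, at -3.29 in control 6 and between -3.52 and -2.42 in the model mice. The labels give no time of day of collection. With the index as a covariate, 3590 of the 17456 genes tested were called higher and 2927 lower. For the 38 genes, 23 calls were higher and 3 lower, and 6 calls were lost. Among these, Mcm7 (-0.10) and Rrm1 (0.02) came near 0, whereas Ccnb2 (1.03), Plk1 (1.30), Gins1 (0.37) and Birc5 (1.13, above its 0.81 without the index) kept a difference in the same direction. Mcm10 fell (-0.74, edgeR adjusted p = 0.00221). Prc1 moved from 1.38 to 2.36. Against control 6 alone, whose spread is then taken from the model mice, only effect sizes are given here. Mki67 (2.73), Top2a (3.07) and Ccnb1 (4.53) stayed higher, as did Tpx2, Cenpe, Mcm2 to Mcm5, Gins2 and Cdc6. Mcm10 was at -0.94. Bub1 (3.14), Aurka (-0.74), Foxm1 (2.04), Cenpf (2.20) and Nusap1 (1.18) had log2 fold changes about as large as with all controls and wider standard errors. Rrm2 had a larger fall (-0.72). Ccnb2 (1.01), Plk1 (1.34), Mcm6 (0.69), E2f1 (0.67), Gins1 (0.23), Rrm1 (0.03) and Mcm7 (-0.08) were smaller in size. The part of the clock in the differences was not tested.

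Other genes of the same processes, listed from background knowledge, were counted in the same way. Of 49 further mitosis genes tested, 37 rose and 3 fell, and the median log2 change was 1.21. With the clock covariate 27 were called higher and 3 lower. The highest 2 were Ckap2 (2.99), a spindle protein gene, and Cep55 (2.95), which acts in the final cut of cytokinesis. The lowest 2 were Ccnf, cyclin F (26.1 ± 4.3 CPM in controls, 6.43 ± 1.71 in model mice, SD, n = 6 and 18, log2 fold change -2.02), and the kinetochore gene Spc25 (-1.55), both below every control in 18 of 18 model mice.

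Of 45 further replication genes tested, 24 rose and 5 fell, with a median of 0.27. With the clock covariate 9 were called higher and 4 lower, while over all genes tested the calls higher went from 5445 to 3590. Uhrf1, which recruits the maintenance DNA methyltransferase to new DNA, rose by 3.32 on the log2 scale, from 0.154 ± 0.0681 to 1.6 ± 0.42 CPM (SD, n = 6 and 18). The checkpoint gene Clspn rose by 3.03. Tk1, thymidine kinase, had a log2 fold change of -1.23 and Rnaseh2a, a subunit of ribonuclease H2, of -0.54, which did not pass with library totals alone (-0.21, edgeR adjusted p = 0.0666).

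Of 24 other regulators of the E2F and DREAM families and of the step from G1 to S, 4 rose and 10 fell, with a median of -0.16. Rbl1, which encodes the pocket protein p107, rose by 1.91, and E2f2 by 0.82. E2f8, an atypical repressor, had a log2 fold change of -1.63, which did not pass with the clock covariate (-1.11, edgeR adjusted p = 0.0633), and E2f5 of -0.53. With the clock covariate 2 of the 24 were called higher and 3 lower, with a median of -0.14. These 3 lists were read beside the same 31.2% and 28.8% of all genes.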

How the data were processed

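Total RNA was isolated by Trizol and its polyadenylated part caught on oligo(dT) beads, per the labels. What the authors deposited is 1 table of raw counts for each gene, with exon positions and summed exon length. GRCm39 is the build named in the submitters' processing notes. The aligner, counting program, annotation release and strand setting were not given in the sources used here. Gene length, the other deposited measure, served only for levels per kilobase. Symbols were matched for 51498 of 78298 IDs, which held 99.6% of counts. No 2 libraries of a group agreed within sampling noise (smallest chi-square per degree of freedom 17.0 over 168 pairs).

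The main test was edgeR 4.0.16 (quasi-likelihood, robust, TMM factors, default expression filter, all 24 libraries, group alone) in R 4.3.3, with Benjamini-Hochberg adjustment over 17456 genes, checked on simulated data. TMM factors were 0.813 to 0.891 in controls and 0.99 to 1.16 in model mice. Log2 CPM used a prior count of 2. Relations across mice used 100000 permutations, two-sided. Alternatives were other scalings and filters, thinned counts, limma-voom 3.58.1, DESeq2 1.42.0, a replicate block, a clock covariate, a threshold of 0.01 and leaving out each mouse. Control 6 alone and marker lists without their most abundant gene were added after seeing the data. The members and lists were chosen with earlier results of these data known. Given in full were the 6 genes of each class with the largest absolute log2 fold change, those called against the direction of their class, Pcna, Foxm1 and E2f1. In the other lists the 2 called genes with the largest change in each direction were named. Other genes singled out, such as Cdk1, were chosen after their values were seen.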

Additional observations from a re-analysis of the deposited data

Results flagged for a closer look

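For 50 named genes the 6 control values were searched for a mouse that stood apart, by the gap to its nearest neighbour over the range. Chance marks about 1 in 20 such groups, and 3 were marked. Tpx2 was 0.397 CPM in control 2, and the next control had 0.189. Mcm5 was 0.515 CPM in control 3, below the next control at 0.676. Tk1 was 59.7 CPM in control 6, above the next control at 34.8, and control 6 is the control whose clock index lay among the model mice.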

How the results depend on the processing

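The count of genes called higher (28) and lower (3) did not change with RLE factors, no filter, thinned counts, limma-voom or DESeq2. Upper-quartile factors gave 30 and 2, library totals alone gave 32 and 1, and there were 23 and 3 of the 33 genes that passed a 1 CPM filter. Over all 13829 genes that passed this filter, 4342 were higher and 4242 lower. Leaving out 1 mouse gave 28 to 29 higher and 3 to 4 lower. Over all genes tested these fits called 5198 to 5474 higher and 4787 to 5175 lower. With control 6 as the only control 18 genes were higher and 1 lower, with 0 mitosis genes and 1 replication gene lower. The gene called lower against control 6 alone was Mcm10 (-0.94), which did not pass with all controls. Aurka (-0.74), Rrm2 (-0.72) and Mcm7 (-0.08), lower with all controls, were not called in that fit. A single control gives no spread of its own, so no conclusion is drawn from these calls. Replication genes called lower numbered 1 with upper-quartile scaling, 0 by library totals and 1 at a threshold of 0.01. Values that did not pass changed sign: Cdk1 was 0.12 and Mcm10 0.11 with library totals alone, Cdt1 was 0.0336 with upper-quartile scaling and 0.27 by library totals, and ran from -0.149 to 0.0377 when 1 mouse was left out. Pcna was -0.0665 and Tyms -0.16 with the clock covariate, and -0.0901 and -0.145 with control 6 as the only control.

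For the shared numbers 1 to 6, no common deviation of same-numbered mice was seen. Their deviations correlated between -0.29 and 0.07, and 0 of 6 controls correlated best with the model mouse of its number. The labels do not say whether these mice were paired, and such correlations cannot exclude it. With the number as a replicate block 27 genes were higher and 1 lower, with 0 replication genes lower, Cdk1 at 0.0331 and Cdt1 at 0.17. Over all 17456 genes tested, 4427 were then higher and 3378 lower. The other model mice carry numbers that no control has. The group difference in that fit therefore rests on the 6 controls and model mice 1 to 6.

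Without the 2 farthest mice r of Mki67 was -0.65 with hepatocyte and 0.57 with cholangiocyte markers, and both missed the threshold. Without the most abundant gene of each list these were -0.56 and 0.57. With library totals alone its r with macrophage (0.62) and T and NK cell markers (0.62) passed. Values of Mcm2, none of which passed, changed sign without the 2 farthest mice for hepatocytes (0.27), T and NK cells (-0.14), neutrophils (-0.26) and stellate cells (-0.0465), with library totals alone for macrophages (0.19) and endothelial cells (-0.0904), and without the most abundant gene for hepatocytes (0.45) and endothelial cells (-0.0105). The cause of these changes was not tested. Genes below 0.5 CPM rest on few counts per library, which limits their precision.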
